A study of Tupaia belangeri chinensis with 36 samples.

Results

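Of the 21043 annotated features of the Chinese tree shrew whose identifiers begin with TSDBGID, 6 rose between embryonic day 28 (E28) and embryonic day 42 (E42) in both subventricular zones of the fetal cortex without rising as much in the layer above them. They were chosen from their measured levels, in CPM (the count of a feature in every 1000000 counts on features of its library). In the inner subventricular zone (ISVZ) and in the outer subventricular zone (OSVZ), each E42 library had to reach 10 CPM and to hold at least 4 times the CPM of each E28 library of that layer, while the mean CPM of the intermediate zone (IZ) at E42 had to stay under 2 times its mean at E28. The conditions on the ISVZ and OSVZ alone were met by 82 features, or 0.39% of the TSDBGID features, and those on all 3 layers by 6, or 0.0285%. The 6 genes were TSDBGID.10834, TSDBGID.12981, TSDBGID.13920, TSDBGID.23275, TSDBGID.23879 and TSDBGID.7015. The other 76 features that rose in both subventricular zones also rose 2 times or more in the IZ, and they serve below as the set most like these genes.

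The study dissected layers of the fetal cortex of Tupaia belangeri chinensis by laser capture from Nissl-stained sections and sequenced the poly-A RNA of each. From outside to inside these were the marginal zone (MZ), the cortical plate (CP, cut at later stages into an inner part, CPi, and an outer part, CPo), the IZ, the OSVZ, the ISVZ and the ventricular zone (VZ). The E28 cortex gave 12 libraries, a pair for every layer with the CP undivided, and the E42 cortex gave 14, a pair for every layer with the CP cut into CPi and CPo. The 10 libraries of embryonic day 37 (E37) came from the layers outside the germinal zones, with 3 for the IZ, 2 for the MZ, 2 for the CPi, 2 for the CPo and 1 for a CP left whole. No germinal layer of E37 was analysed here, so these libraries do not show when between E28 and E42 the genes rose in those layers. The study itself compared E37 with E28 and with E42 in the VZ, ISVZ and OSVZ. Its methods take the E37 data of these layers from a public database and earlier studies. The labels name no treatment, genotype or animal, and they do not say whether libraries of a group came from separate fetuses, so the p-values measure the spread between these libraries, which may be technical.

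The VZ lines the ventricle and holds the dividing apical progenitors of the cortex. Their daughters move outward into the subventricular zones, where basal progenitors divide again, and the neurons they form cross the IZ to reach the CP. In primates and in the tree shrew the subventricular zone is split into an inner and an outer part. The outer part of primates is rich in basal progenitors with a radial fibre (outer radial glia). In that of the tree shrew the study counted more intermediate progenitors, another kind of basal progenitor, than outer radial glia. Late in gestation the germinal layers turn from making neurons to making glia, and migrating neurons and the processes of older cells pass through the same layers. A dissected layer is therefore a mixture of cells, and a higher level in it cannot be split into more cells of a type and more RNA per cell.

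Each library held between 17932690 and 102042743 counts on features, and the 12 libraries that the rule used held between 25143369 and 52442035. One pair of libraries did not match its labels. VZ replicate 2 of E42 held the same count as VZ replicate 2 of E28 for all 76871 features, and which stage these counts belong to is unknown. They were used once, as E28, which left 35 distinct libraries and 1 VZ library at E42. None of the 76871 identifiers was found in the table of gene symbols used here. The function of the 6 genes, their sequences and the marker genes of each layer were therefore not analysed, and TSDBGID.7015 and the others are described by identifier alone. Levels of different genes are not compared, since the lengths of their transcripts were not used.

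The rule's own values were as follows. They chose the genes, so they are a description and were not tested. In the ISVZ, the level of TSDBGID.23275 went from 6.1 and 10.3 CPM in the E28 libraries to 152 and 67.2 CPM in the E42 libraries. In the OSVZ it went from 10.9 and 12.6 CPM to 115 and 98.8 CPM. The 2 zones held nearly the same mean at E42, with a ratio of ISVZ to OSVZ of 1.02. TSDBGID.12981 had the largest ratios of E42 to E28 means among the 6, 67.0 in the ISVZ and 91.0 in the OSVZ. Its ISVZ libraries held 3.31 and 1.74 CPM at E28 and 47.8 and 291 CPM at E42, and its OSVZ libraries held 0.676 and 0.172 CPM at E28 and 34.2 and 42.9 CPM at E42. The E42 replicates of the ISVZ thus lay far apart for this gene, while those of the OSVZ lay close together. The E28 end of the OSVZ ratio rested on 26 and 6 counts, the latter being the lowest count of any of the 6 genes in a library.

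The other 4 genes changed by 6.17 to 15.6 times between the E28 and E42 means of the subventricular zones. TSDBGID.10834 held 3.84 and 1.5 CPM in the ISVZ at E28 and 41.6 and 27.6 CPM at E42. In the OSVZ it held 6.08 and 4.38 CPM at E28 and 46.2 and 59.9 CPM at E42. This gene was higher in the OSVZ than in the ISVZ at both stages, with no overlap of libraries. TSDBGID.7015 held 1.59 and 1.53 CPM in the ISVZ at E28 and 25.1 and 23.7 CPM at E42. Its OSVZ libraries held 2.5 and 2.37 CPM at E28 and 25.1 and 21.1 CPM at E42. Replicates of TSDBGID.7015 were close to each other in all 4 groups, and its 2 zones overlapped at E42. TSDBGID.13920 held 2.05 and 0.648 CPM in the ISVZ at E28 and 19.9 and 17.1 CPM at E42, and in the OSVZ 2.24 and 1.54 CPM at E28 and 11.4 and 12 CPM at E42. TSDBGID.23879 held 1.92 and 1.03 CPM in the ISVZ at E28 and 12.6 and 11.2 CPM at E42, and in the OSVZ 1.33 and 0.973 CPM at E28 and 12.7 and 17.8 CPM at E42. Both genes ended between 11.2 and 19.9 CPM, near the limit of 10 CPM, with a higher mean in the ISVZ for TSDBGID.13920 and in the OSVZ for TSDBGID.23879.

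**Figure D1:**
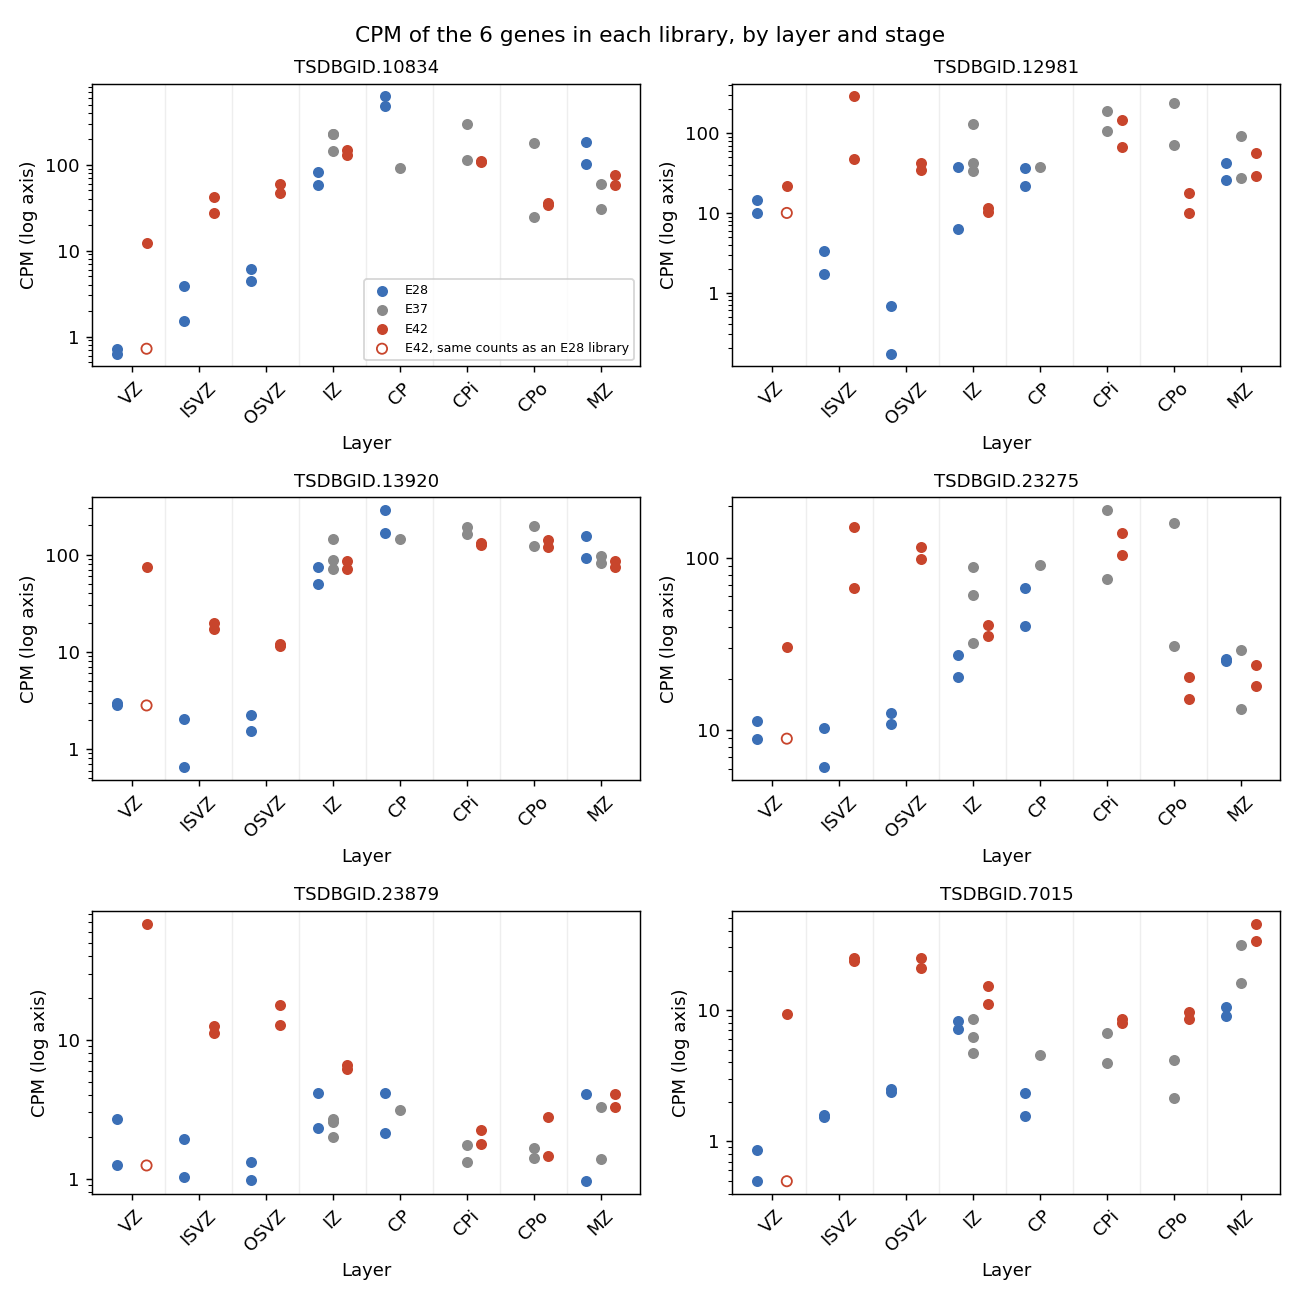
CPM of each of the 6 genes (1 panel per gene, log axis) in every library, by layer from the VZ to the MZ. Blue, grey and red points are libraries of E28, E37 and E42, and the open red circle is the VZ library of E42 whose counts equal those of an E28 library. In the ISVZ and OSVZ the red points lie above the blue ones, as the rule demands, while for TSDBGID.10834 the E28 libraries of the CP lie highest of all, at 482 and 620 CPM.

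In the IZ, where the rule allowed only a small rise by E42, the 6 genes differed in their values. TSDBGID.12981 had a lower mean at E42 than at E28, with a ratio of 0.493, but its E28 libraries held 38.2 and 6.31 CPM, on either side of the 11.7 and 10.3 CPM of E42. TSDBGID.13920 overlapped too, with 73.9 and 49.3 CPM at E28 and 85.1 and 70.6 CPM at E42. For the remaining 4 genes both E42 libraries of the IZ lay above both E28 libraries. TSDBGID.10834 went from 82 and 58 CPM to 148 and 129 CPM, with a ratio of means of 1.98. TSDBGID.23879 went from 4.16 and 2.3 CPM to 6.53 and 6.11 CPM, with a ratio of 1.96. TSDBGID.7015 went from 7.21 and 8.19 CPM to 11.1 and 15.2 CPM, with a ratio of 1.71. TSDBGID.23275 went from 20.4 and 27.3 CPM to 35.4 and 40.9 CPM, with a ratio of 1.60. In these 4 genes the IZ thus differed from the subventricular zones in the size of the ratio and not in its direction. At E28 the IZ libraries lay above those of both subventricular zones in each of the 6 genes. The rule did not use E37, and there 3 genes had IZ means above 2 times that of E28. The ratios were 2.84 for TSDBGID.10834, 3.12 for TSDBGID.12981 and 2.55 for TSDBGID.23275. They were 1.64 for TSDBGID.13920, 0.844 for TSDBGID.7015 and 0.742 for TSDBGID.23879. For TSDBGID.10834 and TSDBGID.23275 every E37 library of the IZ lay above both E28 libraries. These changes at E37 were not tested.

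Of the 3 limits of the rule, only that on the IZ had features close to it on both sides. That of 10 CPM had TSDBGID.23879 and TSDBGID.13920 close above it and no feature close below it. The member with the lowest E42 level was TSDBGID.23879 at 11.2 CPM, and the next feature that met the other conditions stood at 5.42 CPM. The lowest ratio of E42 to E28 libraries inside the rule was 5.09, in TSDBGID.13920, and the nearest outside was 3.42. In the IZ, TSDBGID.10834 was inside at 1.98 and the nearest feature outside was at 2.01, a gap far smaller than the difference between its own replicates.

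**Figure D2:**
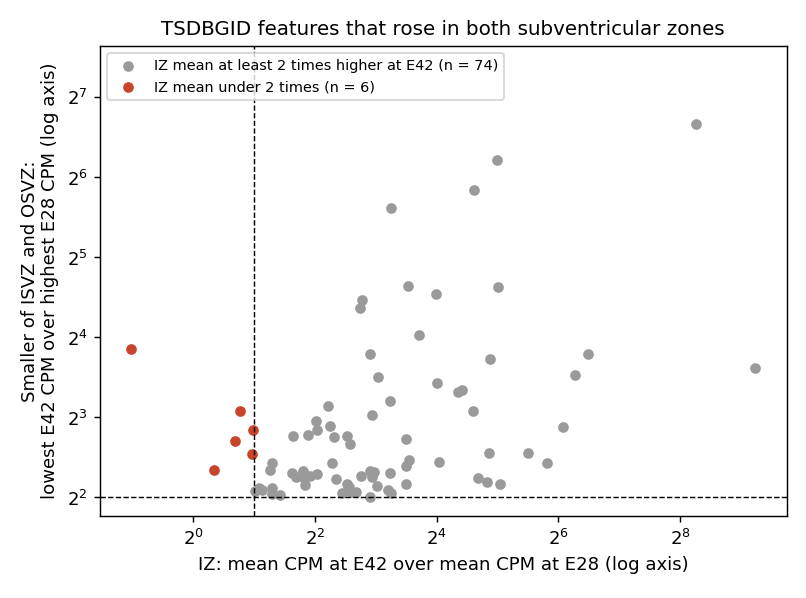
Ratio of the mean CPM at E42 to that at E28 in the IZ (horizontal, log axis) against the smaller of the ISVZ and OSVZ ratios of the lowest E42 library to the highest E28 library (vertical, log axis), for the 6 genes (red) and for 74 of the 76 features that also rose in the IZ (grey, the other 2 having a level of 0 at E28 and no ratio). The dashed lines are the limits of 2 and 4, and 2 of the red points, TSDBGID.10834 at 1.98 and TSDBGID.23879 at 1.96, lie against the line of 2.

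The VZ was not used by the rule, so a rise there could be tested, with the duplicated counts taken as E28 and 1 library left at E42. The test is not fully independent of the choice of the genes. At E28 the deviations of VZ libraries from their group mean correlated with those of the ISVZ (0.265) and OSVZ (0.237). The same holds for the CP and MZ (0.167 to 0.202), while the features tested as a whole were not chosen by the rule. Deviations of the IZ, which the rule also used, correlated at E28 with those of the CP (0.251), MZ (0.183) and VZ (0.168). At E42 they correlated with those of the MZ (0.232), CPi (0.141) and CPo (0.137). From E28 to E42, 4 of the 6 genes rose in the VZ and 0 fell (edgeR quasi-likelihood test, Benjamini-Hochberg adjusted p under 0.05 over the 26858 features tested), where 7.7% of all features tested rose and 4.72% fell. The median log2 fold change was 3.90 over the 6 genes and 0.06 over all features. Among the 76 features that also rose in the IZ, 69, or 90.8%, rose in the VZ, with a median of 3.61. The count depends on the stage given to the duplicated counts. With them at both stages, 0 of the 6 genes passed (log2 fold changes of the 4 genes 2.78 to 4.06, adjusted p 0.0926 to 0.197, edgeR), and with them as E42 only, an alternative added after the data were seen, 0 passed (2.42 to 3.62, adjusted p 0.325 to 0.476, edgeR).

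The largest change in the VZ was that of TSDBGID.23879, which went from 2.69 and 1.24 CPM in the E28 libraries to 68.1 CPM in the E42 library (log2 fold change 5.04, SE 0.62, adjusted p = 1.24e-06, edgeR). TSDBGID.13920 went from 2.95 and 2.81 CPM to 73.8 CPM (4.61, SE 0.45, adjusted p = 2.37e-07, edgeR). In these 2 genes the VZ library of E42 held 5.01 and 4.89 times the mean of the E42 libraries of the ISVZ and OSVZ. Among the germinal layers of E42 this 1 VZ library thus held their highest level, with the duplicated counts taken as E28. The duplicated counts, also labelled as VZ of E42, gave 1.24 CPM for TSDBGID.23879 and 2.81 CPM for TSDBGID.13920. Both lay below every ISVZ and OSVZ library of E42. TSDBGID.10834 went from 0.634 and 0.721 CPM to 12.3 CPM in the VZ (4.09, SE 0.84, adjusted p = 0.00284, edgeR), and TSDBGID.7015 went from 0.856 and 0.497 CPM to 9.28 CPM (3.71, SE 0.46, adjusted p = 1.28e-06, edgeR). For both, the VZ at E42 lay below every ISVZ and OSVZ library of that stage, at 0.28 and 0.391 times their mean.

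TSDBGID.23275 and TSDBGID.12981 did not pass the test in the VZ. TSDBGID.23275 held 11.3 and 8.95 CPM at E28 and 30.3 CPM at E42 (log2 fold change 1.51, SE 0.72, adjusted p = 0.211, edgeR), and it passed with the replicate number as a block (adjusted p = 0.0412, edgeR) and with only the VZ libraries in the model (1.42, adjusted p = 0.0109, edgeR). TSDBGID.12981 held 14.6 and 10 CPM at E28 and 22.1 CPM at E42 (0.77, SE 1.11, adjusted p = 0.767, edgeR). The single E42 library lay above both E28 libraries in all 6 genes, and an E42 group of 1 library is assumed by the model to vary like the others. With the duplicated counts left out at both stages, 1 library of each stage remained, both assumed to vary like the other groups, and the log2 fold changes of the 4 genes were 3.27 to 4.49 (adjusted p 8.46e-05 to 0.0316, edgeR).

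**Figure D3:**
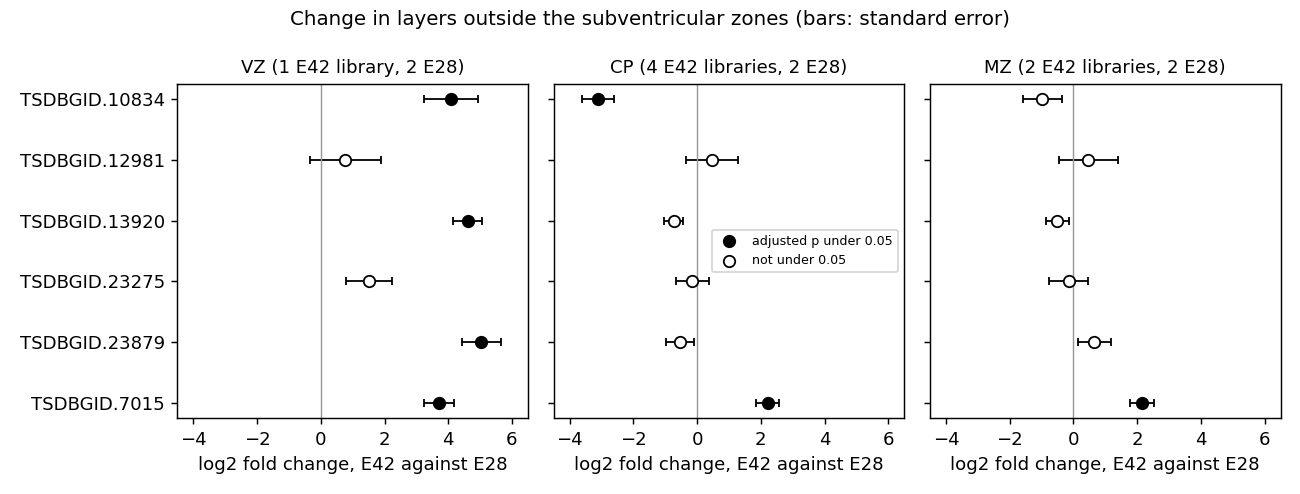
Log2 fold change from E28 to E42 (horizontal) of the 6 genes in the VZ, CP and MZ, from the edgeR model with the duplicated VZ counts as E28, with bars for 1 standard error. Filled points have an adjusted p under 0.05. They number 4 in the VZ, all to the right of 0, 2 in the CP, with TSDBGID.10834 at −3.11 and TSDBGID.7015 at 2.22, and 1 in the MZ.

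In the CP, which receives the neurons, 1 of the 6 genes rose and 1 fell from E28 to E42 (edgeR quasi-likelihood test, with the CPi and CPo averaged at E42), where 8.88% of all features tested rose and 6.3% fell. The median log2 fold change was −0.34 for the 6 genes and 0.01 for all features. The 76 features that also rose in the IZ had a median of 2.45 in the CP, and 62 of them, or 81.6%, rose there. Only the IZ condition separates the 6 genes from these 76 features. Contrasts between these sets, here and in the MZ, are therefore not independent of the rule.

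TSDBGID.10834 was the gene that fell. Its E28 libraries of the CP held 482 and 620 CPM, the highest level of this gene in any layer or stage, against 111 and 106 CPM in the CPi and 35.6 and 34.1 CPM in the CPo at E42 (log2 fold change −3.11, SE 0.52, adjusted p = 3.31e-04, edgeR). All 4 E42 libraries lay below both E28 libraries. At E37 the CP libraries held 90.9 CPM undivided, 112 and 299 CPM in the CPi and 24.5 and 176 CPM in the CPo, and the fall had passed the test by that stage (−2.02, SE 0.48, adjusted p = 0.0115, edgeR). Without E28 replicate 2 of the CP the adjusted p at E37 was 0.111 (edgeR). The same gene thus fell in the CP while it rose in the VZ. A test of the difference between these changes, made after the values had been seen, found a change toward higher levels in the VZ relative to the CP for 3 of the 6 genes and the opposite for 0 (edgeR), against 4.45% and 4.11% of all features tested, and TSDBGID.10834, TSDBGID.13920 and TSDBGID.23879 were the 3. Among the 76 features that also rose in the IZ, 21, or 27.6%, had a change toward higher levels in the VZ and 2 the opposite, and with the duplicated counts as E42 only 0 of the 6 genes passed (edgeR).

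TSDBGID.7015 was the gene that rose in the CP, from 2.34 and 1.56 CPM at E28 to 7.93 and 8.53 CPM in the CPi and 9.62 and 8.58 CPM in the CPo at E42 (log2 fold change 2.22, SE 0.36, adjusted p = 4.99e-05, edgeR). At E37 it held 4.53 CPM in the undivided CP, 6.71 and 3.96 CPM in the CPi and 4.16 and 2.13 CPM in the CPo (1.20, SE 0.34, adjusted p = 0.0211, edgeR). The E37 libraries lay between those of the 2 other stages, with 1 of them, at 2.13 CPM, inside the range of E28. The call at E37 was lost without E28 replicate 1 of the CP (adjusted p = 0.0591, edgeR), without its replicate 2 (0.274) and without E37 replicate 2 of the CPi (0.0658).

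The other 4 genes did not pass the test in the CP at E42. TSDBGID.13920 held 285 and 167 CPM at E28, 133 and 125 CPM in the CPi and 140 and 121 CPM in the CPo at E42. Every E42 library was below both E28 libraries, and the log2 fold change was −0.74 (SE 0.30, adjusted p = 0.109, edgeR), with an adjusted p of 0.012 once the replicate number was a block (−0.70, edgeR). TSDBGID.23879 stayed low in the CP, at 4.14 and 2.12 CPM at E28 and between 1.46 and 2.76 CPM in the 4 libraries of E42 (−0.53, SE 0.44, adjusted p = 0.485, edgeR).

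TSDBGID.12981 and TSDBGID.23275 were split between the 2 parts of the CP at E42. TSDBGID.12981 held 36.3 and 21.5 CPM in the early CP, and by E42 67.6 and 146 CPM in the CPi but 17.7 and 9.97 CPM in the CPo. TSDBGID.23275 held 40.2 and 67 CPM at E28, and at E42 141 and 105 CPM in the CPi but 15.3 and 20.5 CPM in the CPo. In both genes the E42 libraries of the CPi lay above the E28 libraries and those of the CPo below them, and the averaged log2 fold changes were 0.48 (SE 0.82, adjusted p = 0.788, edgeR) and −0.15 (SE 0.52, adjusted p = 0.936, edgeR).

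The CPi and CPo were compared directly after these values had been seen. At E42, 0 of the 6 genes passed (edgeR quasi-likelihood test), 3 had an unadjusted p under 0.05 and 2 passed with the DESeq2 Wald test, where 0.465% of all features tested were higher in the CPi and 0.19% lower. The difference was 2.78 for TSDBGID.23275 (log2, CPi minus CPo, SE 0.64, adjusted p = 0.0607, edgeR) and passed with the replicate number as a block (2.74, adjusted p = 7.94e-04, edgeR). It was 2.94 for TSDBGID.12981 (SE 0.99, adjusted p = 0.363, edgeR) and 1.64 for TSDBGID.10834 (SE 0.63, adjusted p = 0.518, edgeR). At E37, 0 of the 6 genes passed with edgeR or with the DESeq2 Wald test, 0 had an unadjusted p under 0.05, and 0.0186% of features tested were higher in the CPi and 0% lower.

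At E37 the counts of the 6 genes in the CP, averaged over its 5 libraries, included 1 gene that had risen and 1 that had fallen since E28, the genes TSDBGID.7015 and TSDBGID.10834 already described, where 5.02% of all features tested rose and 4.3% fell (edgeR). TSDBGID.12981 held 37.5 CPM in the undivided CP, 106 and 192 CPM in the CPi and 70.5 and 244 CPM in the CPo (log2 fold change 2.08, SE 0.87, adjusted p = 0.162, edgeR), and with the replicate block it passed (1.85, adjusted p = 0.0487, edgeR). TSDBGID.23275 held 90.8 CPM in the undivided CP, 75.9 and 190 CPM in the CPi and 30.9 and 160 CPM in the CPo (1.06, SE 0.53, adjusted p = 0.259, edgeR), and it too passed with the block (1.05, adjusted p = 0.0356, edgeR). With the block, 3 of the 6 genes rose.

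Replicates of E37 stood far apart in 3 of the genes, and in the same direction in all layers. Replicate 3 exceeded replicate 2 in the IZ, CPi, CPo and MZ, by 1.54 to 7.21 times for TSDBGID.10834, by 1.81 to 3.45 times for TSDBGID.12981 and by 1.89 to 5.19 times for TSDBGID.23275. Of the 12723 features with a mean of at least 1 CPM at E37, 25.07% were higher in replicate 3 in all 4 layers. TSDBGID.13920 and TSDBGID.23879 were higher in replicate 3 in 3 of the 4 layers, and TSDBGID.7015 in 1. What the replicate number marks is not given in the labels, and the fits with it as a block are those given above.

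In the MZ, the outermost layer, 1 of the 6 genes rose and 0 fell from E28 to E42 (edgeR quasi-likelihood test), where 7.36% of all features tested rose and 2.26% fell. The gene was again TSDBGID.7015, which went from 10.5 and 9.04 CPM at E28 through 31.5 and 16 CPM at E37 to 33.3 and 45.2 CPM at E42 (E42 against E28, log2 fold change 2.14, SE 0.37, adjusted p = 2.00e-04, edgeR). Its MZ libraries of E42 held the highest levels of this gene in any layer, above the 21.1 to 25.1 CPM of the late subventricular zones. With the duplicated VZ counts as E42 only, its adjusted p in the MZ was 0.0549 (edgeR). Among the 76 features that also rose in the IZ, 59, or 77.6%, rose in the MZ, with a median log2 fold change of 3.07 against 0.16 for the 6 genes and 0.11 for all features.

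At E37, TSDBGID.7015 was the 1 gene of the 6 that had risen in the MZ (log2 fold change 1.38, SE 0.37, adjusted p = 0.0295, edgeR), where 2.72% of all features tested rose and 1.16% fell. The call was lost without E28 replicate 2 of the MZ (adjusted p = 0.123, edgeR) and without E37 replicate 2 of the MZ (0.315). TSDBGID.10834 held 103 and 184 CPM in the MZ at E28, 30.2 and 60.2 CPM at E37 and 75.2 and 58.4 CPM at E42. Both later stages lay below E28, and neither difference passed the test (−1.56, SE 0.63, adjusted p = 0.175 at E37, and −0.97, SE 0.62, adjusted p = 0.369 at E42, edgeR).

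The remaining 4 genes did not pass in the MZ. TSDBGID.13920 held 157 and 92.5 CPM at E28 and 86.7 and 74.1 CPM at E42 (log2 fold change −0.50, adjusted p = 0.417, edgeR), and TSDBGID.23275 held 26 and 25.3 CPM at E28 and 24.1 and 18.1 CPM at E42 (−0.15, adjusted p = 0.923, edgeR). TSDBGID.12981 held 42.5 and 25.7 CPM at E28 and 29 and 56.6 CPM at E42 (0.47, adjusted p = 0.801, edgeR). TSDBGID.23879 held 4.1 and 0.957 CPM at E28 and 3.27 and 4.08 CPM at E42 (0.65, adjusted p = 0.467, edgeR), and without E28 replicate 1 of the MZ, the higher of the 2, its log2 fold change was 2.08 (adjusted p = 0.0309, edgeR). The change from E28 to E42 was also compared between the MZ and the CP by an interaction term. For 0 of the 6 genes did it differ (edgeR, and likewise the DESeq2 Wald test), with 1 at an unadjusted p under 0.05, TSDBGID.10834 (2.14, SE 0.81, adjusted p = 0.249, edgeR), and it was higher in the MZ for 1.38% of all features tested and lower for 0.711%.

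Before the late rise, the 6 genes were not absent from the cortex, though TSDBGID.23879 held at most 4.16 CPM in any E28 library. At E28, 4 of them were lower in the VZ than in the CP and 0 were higher (edgeR quasi-likelihood test), where 13.3% of all features tested were lower and 13.8% higher. The median log2 difference, VZ minus CP, was −2.01 for the 6 genes and 0 for all features. Among the 76 features that also rose in the IZ, 20 were lower in the VZ and 33 higher, with a median of 0.44. The rule asked for low E28 levels in the ISVZ and OSVZ relative to E42, with less change in the IZ. Genes chosen in this way may be low at E28 in the VZ beside these zones too. The test therefore cannot separate this difference from the choice of the genes.

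The difference was −9.70 for TSDBGID.10834 (log2, SE 0.92, adjusted p = 1.16e-07, edgeR), with 0.634 and 0.721 CPM in the VZ and 482 and 620 CPM in the CP. The mean level of this gene at E28 went up from the VZ through the ISVZ, OSVZ and IZ to the MZ and the CP, and the libraries of neighbouring layers in that order did not overlap. TSDBGID.13920 differed by −6.32 (SE 0.45, adjusted p = 1.36e-10, edgeR), with 2.95 and 2.81 CPM in the VZ and 285 and 167 CPM in the CP. The VZ and both subventricular zones shared a low level of 0.648 to 2.95 CPM at E28, and the IZ, MZ and CP held at least 49.3 CPM. By E42 the VZ library of TSDBGID.13920, at 73.8 CPM, lay within the range of the IZ libraries of that stage.

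The 2 smaller differences rested on single libraries, and that of TSDBGID.7015 lay between low levels. It held 0.856 and 0.497 CPM in the VZ and 2.34 and 1.56 CPM in the CP. With all 36 libraries its call was lost too (adjusted p = 0.121, edgeR). TSDBGID.23275 was lower in the VZ by a log2 difference of −2.46 (SE 0.64, adjusted p = 0.00647, edgeR), and the call was lost without E28 replicate 2 of the CP (adjusted p = 0.0503, edgeR) or of the VZ (0.0631). TSDBGID.7015 was lower in the VZ by −1.56 (SE 0.41, adjusted p = 0.00426, edgeR), and the call was lost without E28 replicate 2 of the VZ (adjusted p = 0.0934, edgeR) or replicate 1 of the CP (0.0517). TSDBGID.12981 (−1.26, SE 0.94, adjusted p = 0.383, edgeR) and TSDBGID.23879 (−0.69, SE 0.52, adjusted p = 0.37, edgeR) did not pass.

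**Figure D4:**
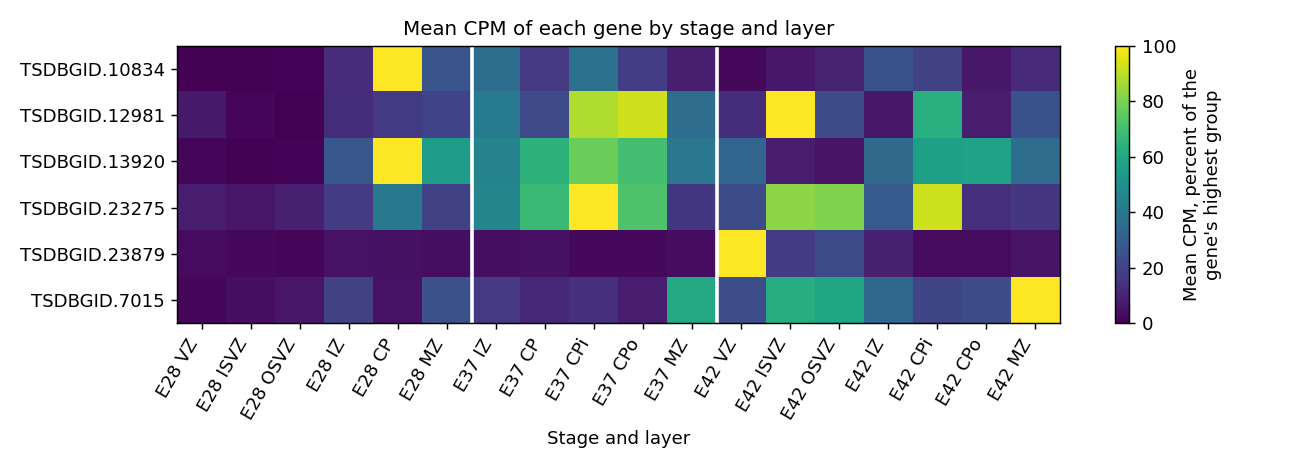
Mean CPM of each of the 6 genes (rows) in each group of stage and layer (columns, from the VZ to the MZ within E28, E37 and E42), as a percent of that gene's highest group (colour). The highest group was the CP of E28 for TSDBGID.10834 and TSDBGID.13920, the ISVZ of E42 for TSDBGID.12981, the CPi of E37 for TSDBGID.23275, the VZ of E42 for TSDBGID.23879 and the MZ of E42 for TSDBGID.7015. The VZ of E42 is 1 library, with the duplicated counts taken as E28.

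With the duplicated counts taken as E28, the 6 genes fell into different courses, as the plot of mean levels by stage and layer shows. TSDBGID.7015 rose in the VZ, the CP and the MZ as well as in the subventricular zones. TSDBGID.10834, TSDBGID.13920 and TSDBGID.23879 rose in the VZ and in neither the CP nor the MZ, and of these TSDBGID.10834 fell in the CP. TSDBGID.12981 and TSDBGID.23275 rose in none of the VZ, CP and MZ by the test, though TSDBGID.23275 passed in the VZ in the fits named above and TSDBGID.12981 in the CP at E37 with the block and with the DESeq2 Wald test (2.06, adjusted p = 0.0311). Their CPi libraries of E42 lay within the range of the ISVZ and OSVZ libraries of that stage. The group of E42 ISVZ libraries was the highest of all groups for TSDBGID.12981 alone, and there it rested on 1 library at 291 CPM.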

How the data were processed

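Per the labels and the methods of the study, the authors cut cortical layers from Nissl-stained cryosections by laser microdissection, built poly-A libraries, trimmed adapters, aligned with HISAT v2.1.0, and obtained integer counts from HTSeq-count with the TS_3.0 gene models. The deposited files hold these raw counts per feature for each library, without normalization. The strand setting is not given in the sources used here. Of all counted lines, 47.98% to 59.35% fell on features and 14.99% to 19.06% were ambiguous between features. The ambiguous ones were counted for no feature, so genes that overlap may be undercounted. Lines that name no feature were left out of library sizes and tests.

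CPM was computed on the total count on features. In R 4.3.3, edgeR 4.0.16 fitted 1 quasi-likelihood model to 35 libraries in 18 groups (one for each layer at each stage, 17 residual degrees of freedom), with TMM scaling, filterByExpr at a minimum count of 10 (26858 features left, all 6 genes among them) and Benjamini-Hochberg adjustment over all features at a threshold of 0.05. The common biological coefficient of variation was 0.378. Log2 fold changes come from this model and need not equal ratios of CPM. The E37 CP average weighted its 5 libraries alike. The script was tested on simulated counts with known changes. Of the 210 values of the 6 genes in distinct libraries, 15 were under 50 counts, the lowest being 6. The counts do not separate PCR duplicates from distinct molecules.

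The members and lists were chosen with earlier results of these data known. The genes to name were the 2 with the highest mean CPM in the late subventricular zones (a way to pick names, not a comparison of expression) and those with the largest called rise and fall in the VZ, CP and MZ at a mean of at least 5 CPM. TSDBGID.13920 falls outside that rule and, like the other values of all 6, is given because the set is small. Comparisons of the CPi with the CPo and of the VZ change with the CP change were added after the data were seen.

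Within a stage, libraries of 2 layers that share a replicate number were compared by correlating their deviations from the group means. All 3 pairs among the layers tested exceeded 0.1 at E28 (0.17 to 0.248), at E37 (0.162 to 0.272) and at E42 (0.141 to 0.181), and over all layers 10 of 15 did at E42. The number was therefore taken to pair libraries within a stage, on these values alone. The main model did not use this pairing, which enters only through the replicate block. Alternatives were no filter, DESeq2's size factors, the DESeq2 1.42.0 Wald test, the replicate block, only the groups compared, all 36 libraries, the duplicated library left out or, added after the data were seen, used as E42 only, a log2 fold change above 1 and single libraries left out. Python 3.11.15 and matplotlib 3.10.9 made the plots.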

Additional observations from a re-analysis of the deposited data

Results flagged for a closer look

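The change from E28 to E42 was compared between the VZ and the CP after the values of both layers had been seen. It differed for 3 of the 6 genes (edgeR quasi-likelihood test of the interaction, Benjamini-Hochberg adjusted), where 4.45% of all features tested changed more toward higher levels in the VZ and 4.11% more toward higher levels in the CP. The log2 change in the VZ minus that in the CP was 7.20 for TSDBGID.10834 (SE 1.00, adjusted p = 1.18e-04, edgeR), 5.57 for TSDBGID.23879 (SE 0.74, adjusted p = 6.21e-06, edgeR) and 5.34 for TSDBGID.13920 (SE 0.53, adjusted p = 5.87e-07, edgeR). Among the 76 features that also rose in the IZ, 21, or 27.6%, were called in the same direction. The 3 differences passed in 16 of 17 alternatives, and with the duplicated VZ counts used as E42 only they were 6.37 (adjusted p = 0.0523), 4.13 (0.189) and 4.35 (0.11, edgeR). It was 1.66 for TSDBGID.23275 (adjusted p = 0.32, edgeR) and 1.49 for TSDBGID.7015 (adjusted p = 0.109, edgeR), and the last passed with the replicate number as a block (1.55, adjusted p = 0.043, edgeR). The comparison rests on 1 VZ library at E42, with the duplicated counts taken as E28, and no alternative left that library out. The comparison shares its libraries with the separate VZ and CP comparisons, so it adds no independent evidence to them. The 17 alternatives are not all separate checks. Leaving out both copies of the duplicated library is the same fit as leaving out VZ replicate 2 of E28. The cut at a log2 fold change above 1 uses the main fit.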

How the results depend on the processing

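The number of genes that met the rule was 7 with TMM-scaled library sizes, 7 without the 20 most abundant features and 6 with TSDBGID features alone as the library, and the 6 genes were among them each time. With all 36 libraries, 0 genes were called as rising in the VZ, 0 as rising or falling in the CP at E37 and 0 as rising in the MZ at E37. With the duplicated VZ counts used as E42 only, added after the data were seen, 0 were called in these comparisons too. In that fit 0 were called as rising in the MZ at E42 and 0 for a change toward higher levels in the VZ relative to the CP. The number called as lower in the VZ than in the CP at E28 was 2. With only the libraries of the groups compared, 2 genes fell in the CP at E42, and 0 rose and 0 fell in the CP at E37. In the same fits 0 rose in the MZ at E37 and 3 were higher in the CPi than in the CPo at E42. For 1 gene the change from E28 to E42 was toward higher levels in the MZ relative to the CP. Without the filter on low counts, 2 fell in the CP at E42. The DESeq2 Wald test called 2 as rising in the CP at E37 and 2 as higher in the CPi at E42, and DESeq2's size factors in edgeR called 1 as higher in the CPi at E42. Without both copies of the duplicated library, 2 were lower in the VZ than in the CP at E28. The replicate block called 2 as falling in the CP at E42, 3 as rising in the CP at E37 and 1 as higher in the CPi at E42. Beside the calls given with the results, this pairing changed no other. With single libraries left out, 0 to 1 rose and 0 to 1 fell in the CP at E37, 0 to 1 rose in the MZ at E37, 1 to 2 rose in the MZ at E42 and 2 to 4 were lower in the VZ at E28. Values that did not pass turned sign without 1 library: the log2 fold change to E42 of TSDBGID.23879 ranged from −0.90 to 0.034 in the CP and from −0.030 to 2.08 in the MZ, that of TSDBGID.23275 from −0.44 to 0.33 in the CP and that of TSDBGID.12981 from −0.15 to 0.92 in the MZ. The cause of these changes was not tested. Of 545 single-gene values under an alternative, 484 kept direction and call, 20 gained a call, 37 lost one and 4 turned sign. Some alternatives share a fit, so these values are not all separate checks. The calls of TSDBGID.10834 and TSDBGID.7015 in the CP at E42 held under every alternative run.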

Other observations

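One feature without a TSDBGID name met the same conditions in the 3 layers, out of 3 such features that met those of the ISVZ and OSVZ. It is named AC015976.3-AS-2 in the files, and since the strand setting of the counting is not given in the sources used here, its reads cannot be told from those of a gene on the other strand. In the ISVZ it held 8.31 and 5.54 CPM at E28 and 36.8 and 37.5 CPM at E42, and in the OSVZ 1.48 and 1.46 CPM at E28 and 10.5 and 23.6 CPM at E42. The VZ libraries held 1.58 and 1.89 CPM at E28 and 3.77 CPM in the 1 library of E42, so its late level in the VZ lay below that of both subventricular zones. These values chose the feature and were not tested.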
